A study of Danio rerio with 4 samples.

Results

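The genes described here encode the proteins of the cytosolic ribosome in the zebrafish embryo. Members were taken by symbol from the annotation of the array: a gene belonged when the single symbol of its probe set began with rpl or rps and a digit, or with rplp, or was rpsa, and the rps6k genes, 5 kinase genes named after Rps6, were left out. The rule gave 79 probe sets of 74 genes, out of 8793 genes with 1 symbol on the array. Of these, 44 encode proteins of the large subunit and 28 proteins of the small subunit. The other 2, rpl7l1 and rps19bp1, match the rule by their letters alone: the relative of rpl7l1 in yeast is a ribosome assembly factor, and Rps19bp1 is a partner of Rps19 and no part of the ribosome. The current gene table holds 85 genes that the rule would take, and 11 of them were not analysed here.

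The cytosolic ribosome joins a small subunit, which decodes the mRNA, to a large subunit, which forms the peptide bond, and each subunit holds 1 copy of most of its proteins. Vertebrate ribosomal protein mRNAs are abundant and most begin with a run of pyrimidines, through which the mTOR pathway controls how much of them is translated. The egg supplies the early embryo with ribosomes, and transcription of ribosomal RNA and of ribosomal protein genes in the embryo itself adds new ones.

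RNA was measured on 4 arrays, 1 for each of 4 conditions, which combine 2 genotypes with 2 stages. The en-pou5f3 embryos (strain RW) were hemizygous for Tg(hsp:en-pou5f3), a transgene in which a heat shock promoter drives the Engrailed repressor domain fused to Pou5f3, and so interferes with the Pou5f3 transcription factor in every cell that responds to heat. The wild-type embryos of the same crosses carried no transgene. Both genotypes were raised at 25°C to 90% epiboly, late in gastrulation, or to 3-ss, the stage with 3 somites, were heated to 37°C for 60 min and developed for 30 min more, so by the labels and the methods every array, the wild-type ones included, comes from heat-shocked embryos. The study's supplementary tables instead mark their columns of signals by heat shock, minus and plus, which would give each genotype ratio another meaning; the labels were followed here, and the conflict was not settled. Each array was made with 250 ng of total RNA from 1 pool of whole embryos that had been genotyped one by one. With 1 array per condition there is no replicate check, and no difference below has a test or a p-value. The values are signals in the units of MAS5, the array maker's summary of a probe set, and a log2 ratio divides the signals of 2 arrays after a floor of 32.4.

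The pou5f3 probe set, which the files do not place in the gene and which therefore checks the transgene only in part, gave a signal of 5473 on the wild-type and 8284 on the en-pou5f3 array at 90% epiboly, against 1277 and 2138 on those at 3-ss. Each array had a mean signal of 500.1 once the top and bottom 2% of its probe sets were trimmed. Spiked-in hybridisation controls had median log2 ratios between -0.03 and 0.07 in the 4 comparisons, and the ratio of the 3′ to the 5′ probe set of gapdh ran from 3.49 to 3.98. Markers of other tissues also moved between the pools. The summed signal of 4 of 5 listed yolk syncytial layer genes was 11062 (wild-type, 90% epiboly), 3896 (en-pou5f3, 90% epiboly), 27733 (wild-type, 3-ss) and 24103 (en-pou5f3, 3-ss). Most of it came from apoa2 and apobb.1. In the same order hnf4a gave 132, 145, 52 and 82, and slc40a1 gave 85, 63, 256 and 258. The sum of 5 gastrula dorsal mesoderm genes was 4298, 2571, 1941 and 1621. Among them gsc gave 685, 38, 90 and 22, while noto, higher in en-pou5f3 embryos at both stages, gave 1402, 1569, 797 and 843. At 3-ss frzb too was higher in en-pou5f3 embryos. The sum of 8 of 9 somite and paraxial mesoderm genes stayed between 14258 and 16296, but most of it came from msgn1 (11362, 12956, 12524 and 12655). Of the others, tbx6, her1 (564, 399, 135 and 109), her7, mespaa and myod1 were lower at 3-ss in both genotypes, and pcdh8 was higher. All of these others and myf5, except tbx6, were lower in en-pou5f3 embryos at both stages. The sum of 5 of 7 enveloping layer genes stayed between 84192 and 91459. Nearly all of it came from krt4, krt5, krt8 and krt18a.1, of which krt4 was higher and krt8 lower at 3-ss in both genotypes. The other gene, agr1, gave 137, 55, 81 and 92. No marker list was wholly at the floor on any array, myod1, a gene of muscle precursors, was not higher at 3-ss (signals of 149, 51, 74 and 36 in that order), and the part of these markers in the results below was not tested. In whole embryos, fewer cells of a type and less RNA per cell cannot be told apart.

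All 74 members had signals over the floor on all 4 arrays. Their median signal was 18305 in wild-type embryos at 90% epiboly, 18858 in en-pou5f3 embryos at 90% epiboly, 22943 in wild-type embryos at 3-ss and 22760 in en-pou5f3 embryos at 3-ss. Both 3-ss arrays lay above both 90% epiboly arrays, and within a stage the genotypes lay close together. The 72 subunit genes together made up 10.96%, 11.1%, 13.2% and 13.1% of the summed signal of all probe sets other than controls on these arrays, in the same order.

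**Figure D1:**
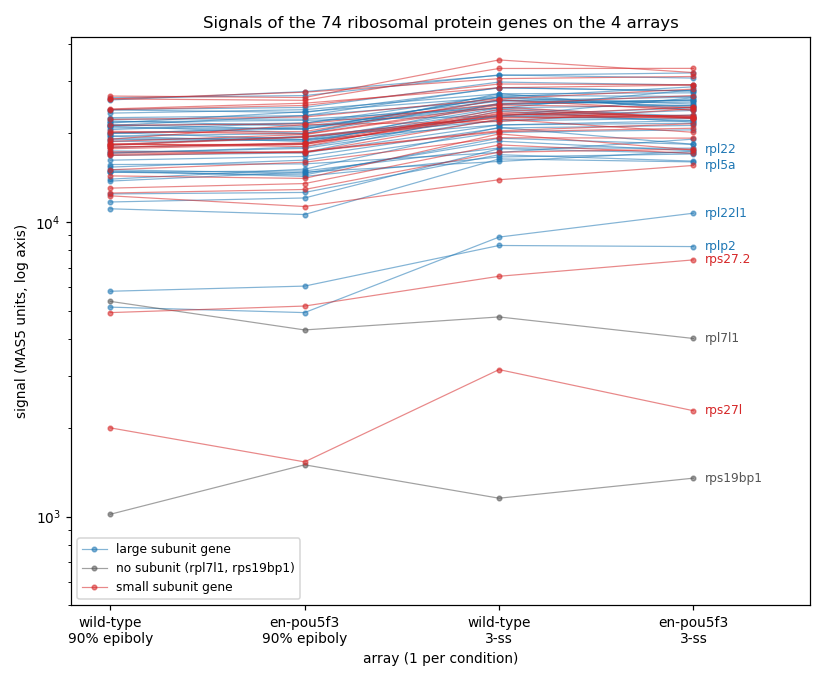
Signal of each of the 74 ribosomal protein genes (log axis, MAS5 units) on the 4 arrays, 1 array per condition, with lines joining the values of a gene. Most lines run level between the genotypes and step up between the stages, where the median signal was 18305 and 18858 at 90% epiboly and 22943 and 22760 at 3-ss, while rpl7l1 is lower and rps19bp1 shows no common step.

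Ribosomal protein signals were higher at 3-ss than at 90% epiboly in both genotypes, by a small amount that nearly all members shared. In wild-type embryos, 73 of 74 members had a higher signal at 3-ss, where 51.9% of all genes did. Their median log2 ratio was 0.32, a fold of 1.25, against 0.02 over all 7411 genes measured. In en-pou5f3 embryos 72 of 74 members were higher, again beside 51.9% of all genes, and the median log2 ratio was 0.29 (fold 1.22) against 0.02 over 7453 genes. The signs of both medians held under each scaling of the arrays that was tried, but the size did not, and the median log2 ratios fell as low as 0.13 (wild-type) and 0.12 (en-pou5f3) after quantile normalization.

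Single members moved by little. A stage ratio of 1.2-fold or more was reached by 55 members in wild-type embryos, against 32.2% of all genes, and by 47 in en-pou5f3 embryos, against 32%, with no member 1.2-fold lower in either, where 27.2% and 27.5% of all genes were. This excess over all genes held for the deposited scaling and for arrays centred on hybridisation controls, and it turned into a deficit under the other scalings tried: with arrays centred on their median, 18.9% (wild-type) and 12.2% (en-pou5f3) of members were at least 1.2-fold higher against 24.0% and 24.1% of all genes, and after quantile normalization the same shares of members stood against 28.6% and 27.4%. At 1.5-fold there were 3 members (rpl22l1, rps27l and rpl22) in wild-type embryos, where 17.4% of all genes stood, and 2 (rpl22l1 and rpl5a) in en-pou5f3 embryos, where 16.5% did. At 2-fold there was no member in wild-type embryos, beside 8.24% of all genes higher and 3.82% lower, and 1 in en-pou5f3 embryos, rpl22l1, beside 7.59% higher and 3.22% lower. The members thus had many small ratios of 1 sign and few large ones. Their spread was narrow too: the middle 50% of members spanned 0.13 (wild-type) and 0.09 (en-pou5f3) on the log2 scale, and the middle 50% of all genes spanned 0.69 in both. Genes outside the members with a mean signal of 5000 or more, of which there are 294, spanned 0.39 in wild-type embryos and had a median log2 ratio of 0.00, with 147 higher and 147 lower.

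Both subunits took part. All 44 large subunit genes were higher at 3-ss in both genotypes, with median log2 ratios of 0.31 (wild-type) and 0.28 (en-pou5f3), and so were all 28 small subunit genes, with medians of 0.34 and 0.30. In 41 of 74 members the signal was at least 1.2-fold higher at 3-ss in both genotypes, where 22.9% of all genes measured in both were, but with arrays centred on their median 7 members were, against 16.4% of all genes, and after quantile normalization 8, against 19.6%. With the deposited scaling another 20 members reached 1.2-fold in 1 genotype, and 13 in neither, among them rpl4, rpl5b, rpl9, rplp2b, rps9, rps14 and rps23. The counts of 20 and 13 were not made over all genes, so whether they differ from the array at large is not known. The stage comparisons of the 2 genotypes share no array, and across the 72 subunit genes their log2 ratios correlated with Pearson's r = 0.68 and Spearman's rho = 0.56, as a description over genes that share 4 arrays and one scaling. Without rpl22l1 r was 0.60.

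**Figure D2:**
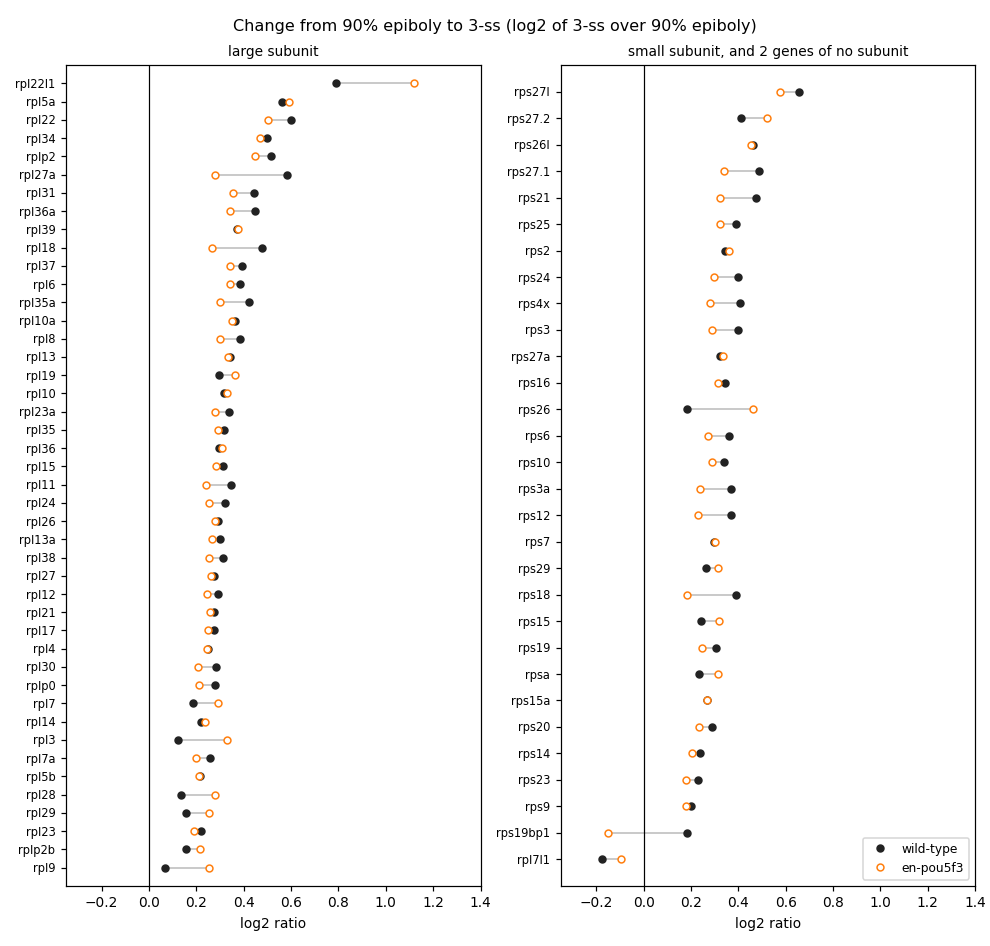
Log2 ratio of the 3-ss over the 90% epiboly signal for each member, large subunit genes on the left and small subunit genes with rpl7l1 and rps19bp1 on the right, filled for wild-type and open for en-pou5f3 embryos, 1 array per condition. All subunit genes lie to the right of 0, most between 0.2 and 0.5, and rpl22l1 lies farthest right at 0.79 and 1.12.

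The largest stage ratio belonged to rpl22l1, the paralogue of rpl22; both proteins bind RNA and are known in zebrafish and mice for roles in blood cell development. The rpl22l1 signals at 90% epiboly were 5137 (wild-type) and 4921 (en-pou5f3), and those at 3-ss were 8878 (wild-type) and 10701 (en-pou5f3). Both 3-ss signals exceeded both earlier ones, with stage log2 ratios of 0.79 and 1.12 for the 2 genotypes (folds of 1.73 and 2.17). The rpl22 signal was 11681, 12053, 17712 and 17090 in the order wild-type and en-pou5f3 at 90% epiboly, then wild-type and en-pou5f3 at 3-ss, an order kept for all signals below. Its stage log2 ratios of 0.60 and 0.50 were also among the highest 5 members in each genotype. As a measure of how far probe sets of 1 gene differ, the SD between them was 0.38 (wild-type) and 0.34 (en-pou5f3) for the stage comparisons over 950 genes, and 0.14 and 0.10 over 14 genes whose signals were 5000 or more; it holds no variation between pools of embryos. Both genes moved by more than these SDs, but they were picked from the top of 74 members, and each was measured by 1 probe set.

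Proteins of the 5S ribonucleoprotein, Rpl5 and Rpl11, carry 5S rRNA into the large subunit, and in mammalian cells the free complex holds back Mdm2, the inhibitor of p53. Zebrafish have 2 rpl5 genes on the array, and their ratios differed. Each has 1 probe set, so a difference between the genes and one between their probe sets cannot be told apart. The rpl5a signals were 11076, 10591, 16352 and 15978, so both 3-ss values lay well above both earlier ones, with stage log2 ratios of 0.56 and 0.59. The rpl5b signals were 18961, 19383, 22018 and 22469, with stage log2 ratios of 0.22 and 0.21 that turned to -0.01 and -0.00 after quantile normalization. The rpl11 signals were 20849, 20711, 26473 and 24444, with log2 ratios of 0.34 and 0.24, beside large subunit medians of 0.31 and 0.28.

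The stalk of the large subunit, built from Rplp0 and pairs of the acidic proteins Rplp1 and Rplp2, recruits the elongation factors. The base of the stalk, rplp0, gave signals of 25926, 27672, 31419 and 32029, with stage log2 ratios of 0.28 and 0.21. Its partners again formed a pair of related genes with unequal ratios, each measured by 1 probe set. For rplp2 the signals were 5815, 6054, 8315 and 8244, and the stage log2 ratios 0.52 and 0.45. For rplp2b they were 19158, 18993, 21328 and 22055, and the ratios 0.15 and 0.22. Each pair of 3-ss signals lay above the pair at 90% epiboly.

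Around the exit of the nascent peptide, the large subunit carries Rpl17, Rpl19, Rpl23a, Rpl26, Rpl31 and Rpl35. Their stage log2 ratios ran from 0.28 to 0.44 (wild-type) and from 0.25 to 0.36 (en-pou5f3), beside subunit medians of 0.31 and 0.28. The highest wild-type ratio of the group was that of rpl31. Rpl3, which reaches toward the peptidyl transferase centre, and Rpl9, another large subunit protein, had small ratios in wild-type embryos. The rpl3 signals were 22332, 22313, 24316 and 28063, with log2 ratios of 0.12 and 0.33. A second, dimmer probe set of rpl3 gave 12026, 12044, 16256 and 15910, with log2 ratios of 0.43 and 0.40, so the difference between the genotypes seen with the brighter probe set at 3-ss was not seen with the other. The rpl9 signals were 21841, 22110, 22856 and 26379, and its wild-type ratio of 0.07 was the lowest of the subunit genes. Rpl38, which in the mouse is needed for translation of certain Hox mRNAs, gave signals of 24045, 24452, 29818 and 29136 and log2 ratios of 0.31 and 0.25.

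In the small subunit the highest stage ratio in both genotypes was that of rps27l, one of 3 genes for the zinc finger protein Rps27 and its relatives. The rps27l signals were 2000, 1533, 3153 and 2286, with stage log2 ratios of 0.66 and 0.58; its human relative is a p53 target. The rps27.1 signals were 13017, 13489, 18241 and 17092, with log2 ratios of 0.49 and 0.34, and 2 dimmer probe sets of the gene gave 0.44 and 0.49 for wild-type embryos and 0.28 each for en-pou5f3 embryos. The rps27.2 signals were 4921, 5180, 6537 and 7431, with log2 ratios of 0.41 and 0.52. All 3 genes of the family had higher signals at 3-ss in both genotypes. Between rps27.1 and rps27.2 in the wild-type order lay rps21, with signals of 14323, 14043, 19890 and 17538 and log2 ratios of 0.47 and 0.32, and rps26l.

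The rps26 pair sits by the mRNA exit channel of the small subunit. The rps26l signals were 12526, 12879, 17239 and 17648, with equal stage log2 ratios of 0.46 and 0.45. The rps26 signals were 12258, 11274, 13899 and 15542, and the log2 ratios of 0.18 and 0.46 made it the lowest small subunit gene in wild-type embryos and the third highest in en-pou5f3 embryos. How much the probes of related genes share was not tested.

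Other small subunit genes known for their roles lay near the median. Rps6, whose phosphorylation by S6 kinases is a common readout of mTOR activity, gave signals of 15025, 15935, 19296 and 19236 and stage log2 ratios of 0.36 and 0.27. Loss of 1 copy of RPS19 causes Diamond-Blackfan anaemia in humans, and rps19 gave signals of 18191, 19377, 22507 and 23019 with log2 ratios of 0.31 and 0.25. Rps14, whose human gene is lost in a form of myelodysplastic syndrome, gave signals of 24165, 25278, 28518 and 29126 with log2 ratios of 0.24 and 0.20. The 3-ss signals of all 3 genes lay above those at 90% epiboly. Rpsa, also known as the laminin receptor precursor, gave signals of 22259, 22691, 26143 and 28224, with log2 ratios of 0.23 and 0.32. The gene rps27a encodes a ribosomal protein fused to ubiquitin, and its signals of 18319, 19454, 22916 and 24538 gave log2 ratios of 0.32 and 0.33.

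The 2 members of no subunit did not share the step. The rpl7l1 signals were 5374, 4298, 4757 and 4020, lower at 3-ss with log2 ratios of -0.18 and -0.10, while its namesake rpl7, a subunit gene with signals of 22013, 21135, 25075 and 25893, had ratios of 0.19 and 0.29. The rps19bp1 signals were 1018, 1498, 1154 and 1350, with log2 ratios of 0.18 and -0.15, and its dimmer probe set gave -0.27 and -0.26.

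Stage ratios were somewhat larger in dimmer subunit genes. The 72 subunit genes were divided by mean signal into 3 groups of 24. In the dimmest 24 the median log2 ratios were 0.39 (wild-type) and 0.34 (en-pou5f3), in the middle 24 they were 0.34 and 0.29, and in the brightest 24 they were 0.28 and 0.27. Hybridisation controls at similar signals, 4 cre probe sets with signals from 17358 to 35431, had stage log2 ratios from -0.15 to 0.38 (wild-type) and from -0.04 to 0.11 (en-pou5f3), with medians of 0.03 and 0.05. One cre control in wild-type embryos thus moved as far as the members did, and in en-pou5f3 embryos the median of the members lay above all 4. What signal level has to do with the ratios was not tested.

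**Figure D3:**
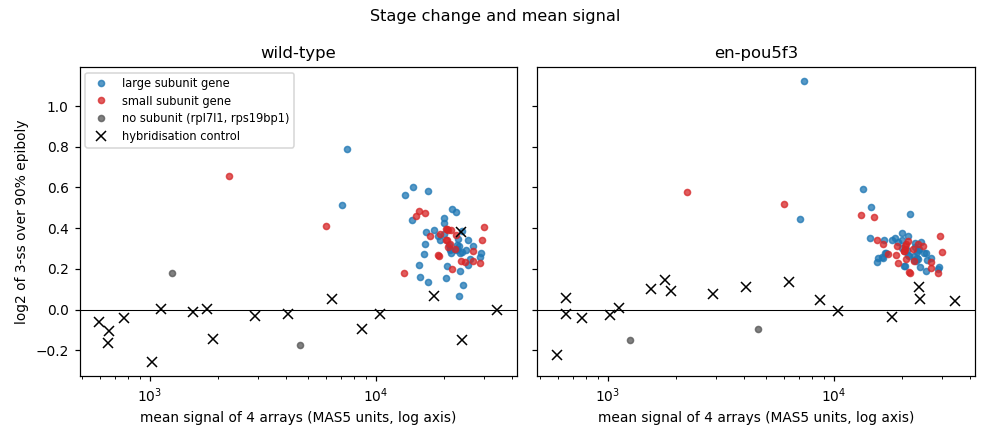
Stage log2 ratio (3-ss over 90% epiboly) against the mean signal of the 4 arrays (log axis, MAS5 units) for each member and each of 18 hybridisation controls (crosses), wild-type embryos on the left and en-pou5f3 embryos on the right. The controls lie around 0, with one at 0.38 in wild-type embryos, and the subunit genes lie above 0, with medians falling from 0.39 to 0.28 and from 0.34 to 0.27 between the dimmest and the brightest 24.

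Between the genotypes the ribosomal protein genes were nearly level at both stages, which is the comparison the study was built on. At 90% epiboly the median log2 ratio, taken as en-pou5f3 divided by wild-type, was 0.03, as over all 7261 genes, with 50 members higher and 24 lower, where 55.4% of all genes were higher. At 3-ss it was -0.00, as over all 7467 genes, with 37 higher and 37 lower, where 49.6% of all genes were higher. The counts by direction moved with the scaling of the arrays, from 36 to 57 members higher at 90% epiboly and from 20 to 37 at 3-ss, and the sign of the median at 90% epiboly turned with arrays centred on their median, so no direction is given for the group.

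No member reached 2-fold between the genotypes at either stage, where 1.1% of all genes were higher and 2.26% lower at 90% epiboly, and 1.58% higher and 1.85% lower at 3-ss. None reached 1.5-fold either, where 5.26% of all genes were higher and 6.27% lower at 90% epiboly, and 6.79% higher and 6.84% lower at 3-ss. At 1.2-fold there was 1 member higher (rps19bp1) and 2 lower (rps27l and rpl7l1) at 90% epiboly, against 19.6% and 17.4% of all genes, and 1 higher (rpl22l1) and 1 lower (rps27l) at 3-ss, against 21.7% and 20.8%. Within 1.2-fold were 71 of 74 members at 90% epiboly, beside 4572 of 7261 genes, and 72 at 3-ss, beside 4294 of 7467 genes. At both stages 70 members were, and this count was not made over all genes. The middle 50% of members spanned 0.08 on the log2 scale at 90% epiboly and 0.12 at 3-ss, against 0.36 and 0.44 over all genes and 0.15 and 0.22 over the 294 other genes with a mean signal of 5000 or more. The large subunit had medians of 0.02 and 0.01 and the small subunit of 0.04 and -0.01.

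**Figure D4:**
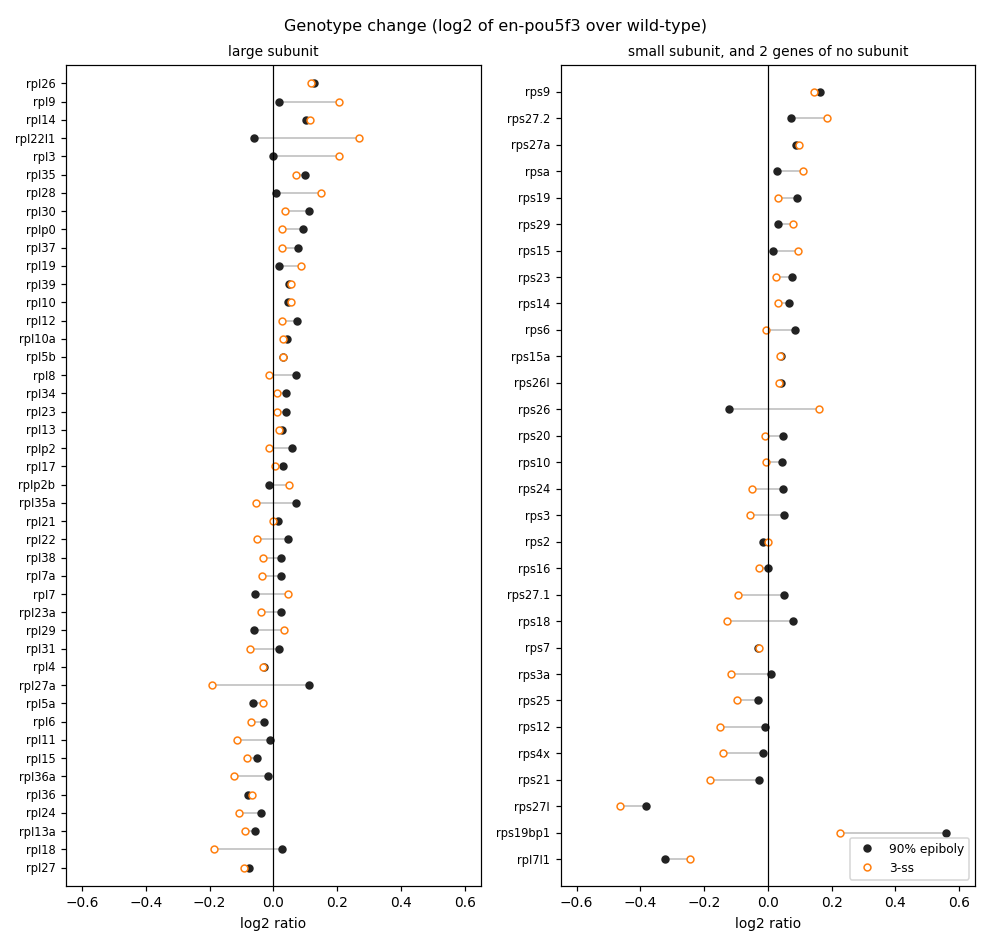
Log2 ratio between the genotypes (en-pou5f3 divided by wild-type signal) for each member, large subunit genes on the left and small subunit genes with rpl7l1 and rps19bp1 on the right, filled for 90% epiboly and open for 3-ss, 1 array per condition. Nearly all points lie within 0.2 of 0, and rps27l lies lowest at both stages, at -0.38 and -0.46.

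The lowest genotype ratios at both stages belonged to rps27l. Its signals given above, 2000 against 1533 at 90% epiboly and 3153 against 2286 at 3-ss, amount to log2 ratios of -0.38 and -0.46, or 1.30-fold and 1.38-fold lower. The SD between probe sets of 1 gene over 950 genes was 0.26 at 90% epiboly and 0.33 at 3-ss. Because rps27l was picked as the lowest of 74 members and this SD holds no variation between pools, passing it gives no support. The gene has 1 probe set. Of its relatives, rps27.2 had genotype log2 ratios of 0.07 and 0.18, and rps27.1 of 0.05 and -0.09. Dimmer probe sets of rps27.1 gave -0.03 and -0.02 at 90% epiboly and -0.19 and -0.22 at 3-ss, so at 3-ss all sets of that gene were lower in en-pou5f3 embryos.

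Next lowest was rpl7l1, with log2 ratios of -0.32 at 90% epiboly and -0.24 at 3-ss, while rpl7 had -0.06 and 0.05. The highest ratio at 90% epiboly, 0.56, belonged to rps19bp1, and a dimmer probe set of that gene gave 0.09. Among subunit genes the highest at 90% epiboly was rps9, a protein near the mRNA entry of the small subunit, with signals of 19073, 21361, 21900 and 24212 and log2 ratios of 0.16 and 0.14. After it came rpl26 (0.13), rpl27a (0.11) and rpl30 (0.11). The lowest after rps27l were rps26 (-0.12), rpl36 (-0.08) and rpl27 (-0.08).

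At 3-ss the highest genotype ratios of subunit genes were those of rpl22l1 (0.27), rpl9 (0.21), rpl3 (0.21) and rps27.2 (0.18), and the lowest after rps27l those of rpl27a (-0.19), rpl18 (-0.18) and rps21 (-0.18). Of these, rpl3 had a second probe set, which gave -0.03. The 2 genotype comparisons share no array. Across the 72 subunit genes their log2 ratios correlated with r = 0.44 and rho = 0.28, and without rps27l r was 0.17. The genotype ratio had the same sign at both stages in 47 of 74 members (63.5%) and opposite signs in 27, beside 61.8% with the same sign among all 7049 genes measured at both stages, a share near that of the members. With arrays centred on hybridisation controls it was 31 members, against 59.5% of all genes.

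The difference between the genotype ratios at the 2 stages, which is also the difference between the stage ratios of the 2 genotypes, had a median of -0.03 on the log2 scale over the members and ran from -0.33 to 0.33. Its highest value was that of rpl22l1, whose genotype log2 ratio was -0.06 at 90% epiboly and 0.27 at 3-ss. Then came rps26, with -0.12 and 0.16. At the other end stood rps19bp1, with 0.56 and 0.23, and rpl27a, whose signals of 13963, 15101, 20920 and 18327 gave 0.11 and -0.19. No member crossed 1.2-fold in opposite directions at the 2 stages. As only 3 members at 90% epiboly and 2 at 3-ss reached 1.2-fold, this could hardly be otherwise, and all genes were not counted this way.

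Translation factors, which work beside the ribosome, did not have the stage step of the members as a list, although some of them did. Among 48 measured translation factors the median stage log2 ratios were 0.03 (wild-type) and 0.09 (en-pou5f3). Of these factors 27 and 28 were higher at 3-ss (56.25% and 58.3%), beside 51.9% of all genes in each genotype. At least 1.2-fold higher were 11 in each genotype, against 32.2% (wild-type) and 32% (en-pou5f3) of all genes. At least 1.2-fold lower were 5 and 10, against 27.2% and 27.5%. For eef1b2, a subunit of the exchange factor that recharges elongation factor eEF1A, signals of 6081, 7013, 9745 and 10739 gave log2 ratios of 0.68 and 0.61, while eef2b, which encodes the translocation factor eEF2, had 0.14 and 0.10. Also higher at 3-ss were eef1db (0.73 and 0.59) and eef1g (0.38 and 0.41). The initiation helicase gene eif4a1a had -0.28 and -0.60.

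Other products that belong to the ribosome but not to the naming rule followed the members more closely. The gene faua encodes the small subunit protein Rps30 fused to a ubiquitin-like protein, and its signals of 13667, 13880, 19734 and 19034 gave stage log2 ratios of 0.53 and 0.46. Rack1, a scaffold bound to the head of the small subunit, gave signals of 23129, 24915, 27113 and 28841 and log2 ratios of 0.23 and 0.21. Both had higher signals on both 3-ss arrays. Both belong to a list of 11 further genes taken as having mRNAs that begin with pyrimidines, which was not checked here in zebrafish. In the whole list the medians were 0.12 (wild-type) and 0.15 (en-pou5f3), and tpt1 had 0.04 and 0.13. Another of its genes, npm1a, is also counted among the ribosome biogenesis factors below.

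Ribosome biogenesis factors, here the proteins that transcribe or process ribosomal RNA or assemble the subunits, lay on the other side of 0. Of 87 such genes 74 (wild-type) and 71 (en-pou5f3) had a lower signal at 3-ss, with median log2 ratios of -0.28 and -0.22. Higher signals at 3-ss were found in 14.9% (wild-type) and 18.4% (en-pou5f3) of the list, against 51.9% of all genes in each genotype. None was 2-fold higher, where 8.24% and 7.59% of all genes were. Only rpf2 and polr1a (wild-type) and dkc1 (en-pou5f3) were 2-fold lower, where 3.82% (wild-type) and 3.22% (en-pou5f3) of all genes were. In yeast, the rpf2 product helps to load the 5S ribonucleoprotein with Rpl5 and Rpl11; its signals were 1782, 1509, 764 and 1112, with stage log2 ratios of -1.22 and -0.44. The nucleolin gene ncl, with signals of 12175, 11606, 8429 and 9172, had -0.53 and -0.34. Between the genotypes, 72 of the 87 were lower in en-pou5f3 embryos at 90% epiboly and 61 at 3-ss. Their median log2 ratios were -0.20 and -0.12, where the members had 0.03 and -0.00. Higher signals in en-pou5f3 embryos were found in 17.2% and 29.9% of the list, against 55.4% and 49.6% of all genes. The counts of this list were not repeated under the other scalings.

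The 59 mitochondrial ribosomal protein genes, whose products translate the mitochondrial genome, had stage medians of 0.06 and -0.01. At 3-ss 33 (wild-type) and 29 (en-pou5f3) of them were higher, or 55.9% and 49.2%, beside 51.9% of all genes in each genotype. Their genotype medians were -0.04 and -0.11, and at 3-ss 49 of 59 were lower in en-pou5f3 embryos. At that stage 16.9% of this list was higher, against 49.6% of all genes. These counts too were not repeated under the other scalings. The 13 measured genes of the mTOR and S6 kinase list had stage medians of 0.25 and 0.27, not far from the 0.32 and 0.29 of the members. Their spread was wide, from -0.38 to 1.45 in wild-type embryos. The mtor gene itself, with signals of 42, 37, 113 and 106, had a log2 ratio of 1.45 for wild-type embryos, from 90% epiboly signals close to the floor. No comparison between the lists was tested, and all of them were measured on the same 4 arrays.

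**Figure D5:**
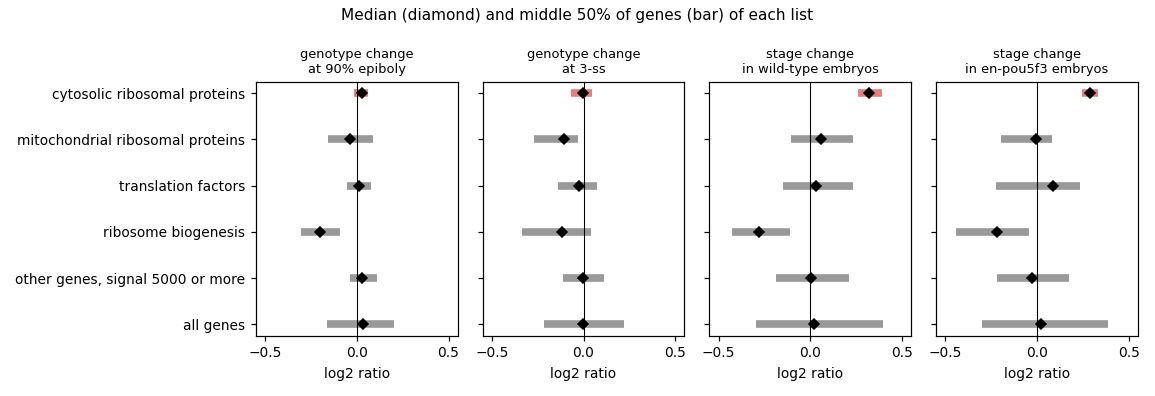
Median log2 ratio (diamond) and middle 50% of genes (bar) of the 74 ribosomal protein genes, 4 other sets of genes and all genes, for the genotype change (en-pou5f3 over wild-type) at each stage and the stage change (3-ss over 90% epiboly) in each genotype. In the stage panels the ribosomal proteins stand at 0.32 and 0.29 with short bars and the ribosome biogenesis factors at -0.28 and -0.22, while all genes stand at 0.02.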

How the data were processed

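RNA of 4 pools of zebrafish embryos was measured on the Affymetrix GeneChip Zebrafish Genome Array (15617 probe sets), 1 array per condition. The authors computed the deposited intensity values, linear signals per probe set, with MAS5 in the GeneChip Operating Software (version not stated), which corrects background and scales each array. The supplementary methods speak of more arrays than the 4 analysed here, and the labels were followed. Their change calls need probe-level data and were not used.

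Groups came from the sample labels. The 115 control probe sets were left out. An annotation table named 10795 probe sets with 1 symbol and 135 with several, and did not list 4680; no gene was named from the last 2 kinds. All 74 members matched the gene table by gene ID. Signals were set to at least 32.4, the 95th percentile of 80 signals of 20 controls without a target, and genes at the floor on both arrays of a comparison were left out of it. The brightest probe set by mean signal stood for each gene. Log2 ratios were computed in Python (3.11.15) using pandas 2.3.3 and numpy 2.4.6, tested on simulated data, and drawn with matplotlib 3.10.9. With 1 array per condition there was no test, and the number of arrays limits the precision.

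Named genes were drawn from members past 2-fold and the 5 highest and lowest of each comparison. Others were members with several probe sets, related pairs and genes with textbook roles. Of all these, rpl28 (wild-type stage log2 ratio 0.14), rps18 (en-pou5f3 stage log2 ratio 0.18) and rpl21 were not described above. A dimmer probe set of rpl21 lay near the floor. The group at the peptide exit, rps27.1 to rps27l as a family and the examples of the other lists were chosen after seeing their values. The members and lists were chosen with earlier results of these data known. Alternatives were other floors, median centring, quantile normalization, other probe set choices, 1.2-fold and 1.5-fold thresholds, and, added after seeing the data, centring on hybridisation controls and a split into 3 groups by signal. Genome coordinates, promoter and protein sequences were not used here, so a planned count of pyrimidine starts was not run.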

Additional observations from a re-analysis of the deposited data

How the results depend on the processing

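Each array has no replicate, so leaving out a replicate could not be tried. No paired analysis was possible because each condition has 1 array. The median stage log2 ratio of the members kept its sign under all 12 alternatives in each genotype, between 0.13 and 0.39 in wild-type and between 0.12 and 0.34 in en-pou5f3 embryos. Several of these could hardly move it: all 74 members had signals over the floor on all 4 arrays, and only 4 members have several probe sets. It fell to 0.17 and 0.14 with arrays centred on their median, which moved the median of all genes by its construction to -0.13 and -0.12, and to 0.13 and 0.12 after quantile normalization. The number of members higher at 3-ss was then 70 and 72 with median centring and 67 in both genotypes with quantile normalization, and the number at least 1.2-fold higher dropped from 55 and 47 to 14 and 9 with either, below the share of all genes. The median of the members stood above that of the 294 other genes with a mean signal of 5000 or more by 0.32 and 0.31, a gap that centring cannot change, and by 0.20 in both genotypes after quantile normalization.

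The median genotype log2 ratio ran from -0.00 to 0.05 at 90% epiboly and from -0.04 to 0.00 at 3-ss over 10 alternatives each, and its sign turned in 1 and 2 of them. In place of 0, 0, 0 and 1 members past 2-fold, a threshold of 1.2-fold gave 3 and 2 between the genotypes at 90% epiboly and 3-ss and 55 and 47 between the stages in wild-type and en-pou5f3 embryos. A threshold of 1.5-fold gave 3 and 2 between the stages. With median centring no member passed 2-fold between the stages in en-pou5f3 embryos (0), where rpl22l1 had a log2 ratio of 0.98. What made the scalings differ was not tested.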
